A study of Mus musculus with 15 samples.

Results

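The nuclear-encoded genes of oxidative phosphorylation were described in bone marrow-derived macrophages after PBS, HMGB1, LPS or LPS/IFNγ. Members were the protein-coding genes whose mouse symbols start with Nduf, Uqcr, Atp5 or Cox4 to Cox8 and whose counts, summed over all 15 libraries, reached 150. There were 85 such genes among 21649 protein-coding genes and 51763 genes in all. The study asked how 2 redox forms of the alarmin HMGB1 act on macrophages, and each of its 5 conditions had 3 RNA-seq libraries. Bone marrow of female C57BL/6NTac mice aged 8 to 10 weeks was matured with M-CSF at 10 ng/mL in 10% FBS, for 10 days per the labels and 8 to 9 days per the study's methods, and the cells were then held for 24 h in 1% FBS with the stimulus. Control cells received PBS. Fully reduced HMGB1 (frHMGB1), made in-house, and disulfide HMGB1 (dsHMGB1), a gift, were each given at 5 µg/mL. The sample labels can be read as DTT-free buffers for both forms, whereas the study's methods add DTT when making frHMGB1. The LPS group received LPS-EK at 1 µg/mL. The LPS/IFNγ group received IFNγ at 20 ng/mL with LPS-EK, for which the treatment field gives 1 µg/mL and the protocol text 100 ng/mL. Macrophages grown from 5 mice were pooled ahead of seeding, so the 3 libraries of a condition are technical replicates, and no value below holds a spread between mice.

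Oxidative phosphorylation passes electrons from NADH and succinate along the respiratory chain to oxygen and uses the proton gradient so made to drive ATP synthase. Complex I takes electrons from NADH, complex III passes them to cytochrome c, complex IV reduces oxygen and complex V makes ATP. The mitochondrial genome encodes some subunits of complexes I, IV and V and cytochrome b of complex III, while all other subunits and all assembly factors are encoded in the nucleus, and macrophages activated by LPS are known for a shift of their metabolism from respiration towards glycolysis.

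By role, 36 members encode complex I subunits, 8 complex I assembly factors (Ndufaf1 to Ndufaf8), 8 complex III subunits, 14 complex IV subunits and 16 complex V subunits. Ndufa4 and Ndufa4l2 were kept as a pair of their own because Ndufa4, named as a complex I gene, is now placed in complex IV, and Atp5s, named for a coupling factor of ATP synthase, was kept alone. The members lie on 19 chromosomes. In the annotation 90 protein-coding genes matched the symbols, and 89 of them were in the count table. The 4 left out by the count minimum were Cox4i2 with 105 counts, Cox8b with 2 and Cox7b2 and Cox8c with 0. The lowest members above it were Ndufa4l2 with 446 counts, Cox6a2 with 475 and Cox6b2 with 480. Library totals ran from 40934540 to 80925478 counts. Low counts removed none of the 85 members from the edgeR fit, and 81 reached 1 CPM, counts scaled to the library total, in at least 3 libraries.

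The libraries were checked against their labels. All 8 macrophage markers were found in every library, and their summed level, led by Lyz2, was between 17073 and 21582 CPM scaled by edgeR's trimmed mean of M values (TMM). The stimulation markers Nos2, Il12b, Acod1 and Cxcl9 summed to at most 3.82 CPM in PBS and 12.02 CPM in frHMGB1, against 5866 to 6232 CPM in dsHMGB1, 11444 to 12049 CPM in LPS and 21723 to 22226 CPM in LPS/IFNγ. Of 8 neutrophil markers, Ly6g, S100a9 and Mpo had no counts and the sum, mostly S100a8, was at most 5.77 CPM. Of 6 lymphocyte markers, Cd3e, Cd3d and Nkg7 had no counts. The 4 dendritic cell markers, led by Xcr1 or Zbtb46, summed to 1.27, 1.22 and 2.46 CPM in PBS and 17.0, 16.4 and 18.1 CPM in LPS/IFNγ. The 5 fibroblast markers, led by Col1a1, summed to 201.4, 214.7 and 105.0 CPM in PBS replicates 1, 2 and 3, between 191.4 and 241.7 CPM in the HMGB1 groups, and between 256.6 and 280.3 CPM in LPS and LPS/IFNγ. Their part in the results was not tested, and in bulk RNA fewer cells of a type cannot be told apart from less RNA per cell.

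PBS replicate 3 stood apart from every other library in these genes. The 85 members took 0.533% of all counts in PBS replicate 1 (95% Wilson interval 0.531 to 0.534), 0.509% in PBS replicate 2 (0.507 to 0.510) and 1.26% in PBS replicate 3 (1.26 to 1.26), intervals that cover counting error only. Summed over the members, the level was 4067 and 3869 CPM in PBS replicates 1 and 2 and 11191 CPM in replicate 3. The other conditions ran from 4129 CPM in dsHMGB1 replicate 2 to 5478 CPM in LPS replicate 3. By share of counts their order was another: 0.598% to 0.625% in frHMGB1, 0.403% to 0.523% in dsHMGB1, 0.420% to 0.441% in LPS and 0.355% to 0.369% in LPS/IFNγ, so the LPS and LPS/IFNγ libraries lay below PBS replicates 1 and 2 by share and above them in TMM-scaled CPM. In PBS replicate 3, 83 of 85 members lay above the mean of the other PBS libraries, with a median log2 difference of 1.70, against -0.23 over all 13025 protein-coding genes tested. Uqcrc2 went the other way, at 58.9, 59.5 and 22.8 CPM in PBS replicates 1, 2 and 3, and Ndufs1 was level at 46.9, 48.2 and 45.9 CPM.

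**Figure D1:**
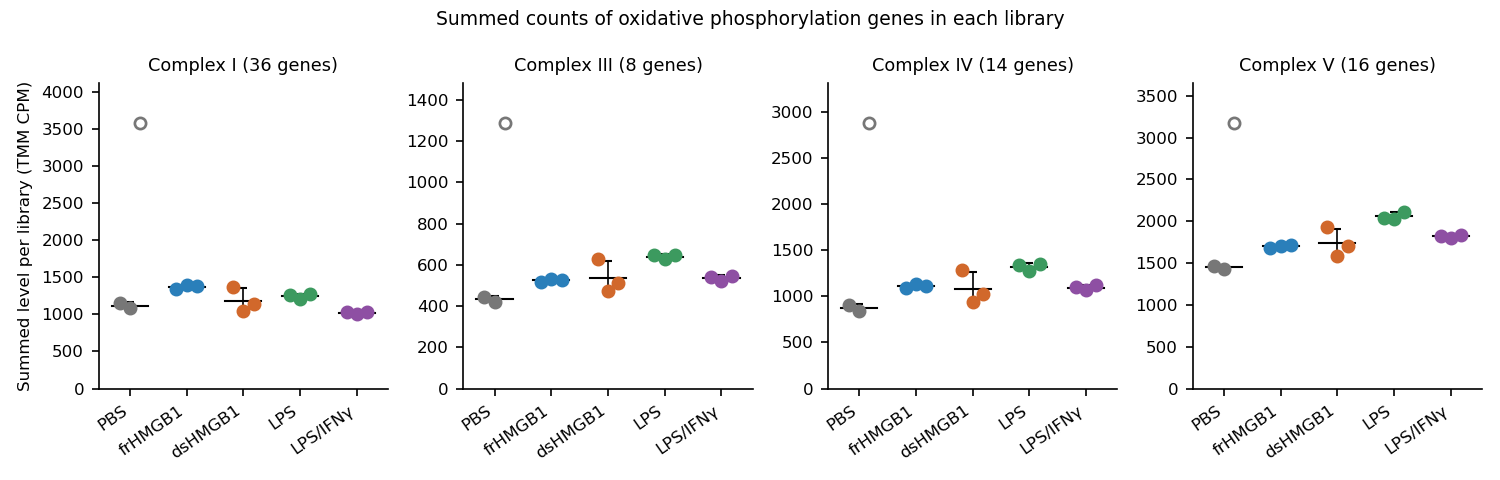
Summed level of the members of complexes I, III, IV and V in each of 15 libraries, in TMM-scaled CPM on axes that start at 0; points are libraries, the open circle is PBS replicate 3, and lines with bars are the mean and SD of the filled points. PBS replicate 3 lies above every other library in all 4 complexes, and the LPS libraries lie above PBS replicates 1 and 2 in each of them under this scaling, while by share of all counts the members' sum in each LPS library lies below both.

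The excess in PBS replicate 3 varied with transcript length. Among protein-coding genes, its median log2 difference from the other PBS libraries was 1.69 for principal transcripts under 700 bases and -0.90 for those of 4000 bases and over, with a Spearman rho across genes of -0.61 between the difference and log2 length. Genes are not independent replicates, so this describes 1 library. The members are short: their median principal transcript was 861 bases against 3123 for the protein-coding genes tested, and 58.8% of members against 5.66% of those genes were under 1000 bases. In each of 6 length classes the members' median difference was above that of all protein-coding genes: 1.66 against 0.91 at 1000 to 1500 bases, 0.72 against 0.28 at 1500 to 2500, and, with 4 and 2 members, 0.65 against -0.28 at 2500 to 4000 and 1.83 against -0.90 above that. Other short-transcript families were high in the same library, with median log2 differences of 1.29 for mitochondrial ribosomal proteins and 1.97 for cytosolic ribosomal proteins. A smaller shift of the same kind was present in dsHMGB1 replicate 1, where 78 of 85 members lay above the other dsHMGB1 libraries by a median of 0.35 and rho with length was -0.54. In the frHMGB1, LPS and LPS/IFNγ libraries the members' median difference stayed between -0.07 and 0.04. What made the difference by length was not tested. Each comparison is therefore given with all libraries and without PBS replicate 3, and genes called in 4 edgeR fits are named separately: these 2 fits and the same 2 with the length trend of each library removed through an offset. The offset also removes any difference between conditions that follows length. As the members are short, their medians under it cannot tell such a difference from a shift of single libraries. With only the 2 conditions compared fitted, 2 members were lower in each of dsHMGB1, LPS and LPS/IFNγ against PBS. Most falls against PBS called in all 4 fits were thus lost there. The share of all genes called in those fits is not given here. A loss among the members therefore cannot be told apart from fewer calls over all genes.

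**Figure D2:**
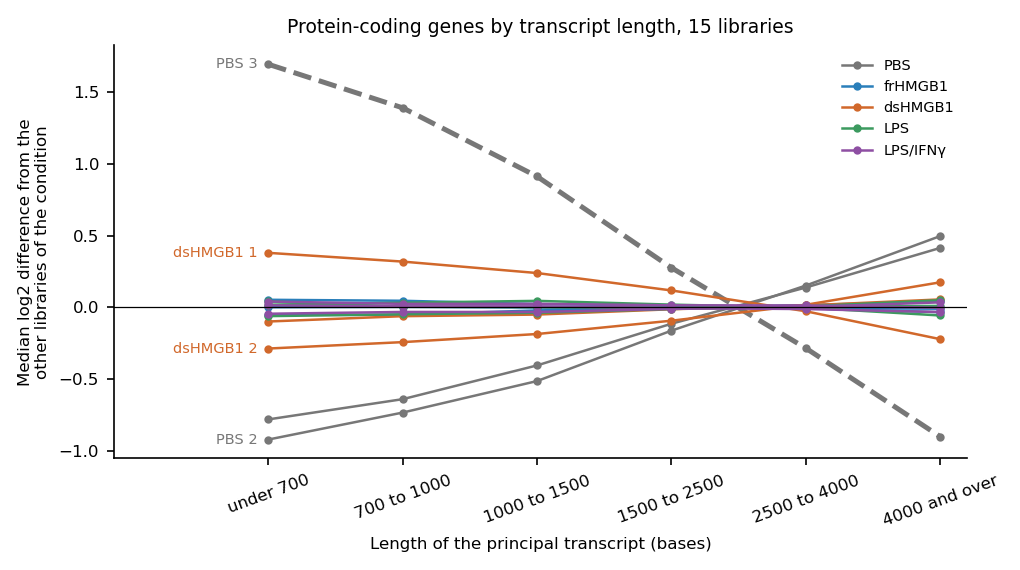
Median log2 difference of each library from the other libraries of its condition (y axis) for protein-coding genes in 6 classes of principal transcript length (x axis, bases), 1 line per library and PBS replicate 3 dashed. PBS replicate 3 falls from 1.69 in the shortest class to -0.90 in the longest, dsHMGB1 replicate 1 falls from 0.38 to -0.22, and the frHMGB1, LPS and LPS/IFNγ libraries stay near 0.

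The direction against PBS also turned with the scaling of the libraries. The TMM factors were 1.31, 1.31 and 1.13 in PBS, 1.26 to 1.28 in frHMGB1, 0.9755 to 0.987 in dsHMGB1, 0.803 to 0.817 in LPS and 0.785 to 0.804 in LPS/IFNγ. An edgeR fit on library totals in place of these factors, added after the values were seen, moved the median log2 fold change of all genes against PBS from -0.11 to -0.46 for dsHMGB1, from -0.27 to -0.89 for LPS and from -0.15 to -0.81 for LPS/IFNγ. On totals edgeR called 0 members higher in each of these comparisons, against 15.3%, 15.6% and 17.5% of genes. At an unadjusted p under 0.05 there were 0 as well, while DESeq2 with its own size factors called 2, 5 and 4. On totals edgeR called 62, 69 and 77 members lower, against 39.4%, 55.8% and 51.8% of genes. None of the rises called by edgeR in all 4 fits against PBS was called on totals. In these 3 comparisons totals move every gene down alike, so rises tend to be lost and falls kept under it whatever the gene. Rises against PBS given below are therefore rises under TMM scaling, and which scaling is closer to RNA per cell was not tested.

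Levels between genes were compared per kilobase of principal transcript, as the mean over the 12 stimulated libraries, which leaves out all PBS libraries. The median member stood at 44.9 CPM per kb, or 22.7 when the union of a gene's exons was the length. By complex the median was 90.9 CPM per kb in complex IV, 69.5 in complex V, 69.2 in complex III, 30.1 in complex I and 3.54 among complex I assembly factors. The most abundant member was Cox4i1, the largest nuclear-encoded subunit of cytochrome c oxidase, at 340.3 CPM per kb, followed by Atp5b, the catalytic beta subunit of ATP synthase, at 280.9. In complex III Uqcrh, the hinge protein, led with 201.7 CPM per kb. In complex I the accessory subunit Ndufa2 led with 99.3, and among assembly factors Ndufaf8 led with 10.5. Ndufa4 stood at 99.8 CPM per kb and Atp5s at 0.715. With union lengths Cox8a led complex IV and Atp5a1 led complex V, and the other groups kept the same leading gene. The levels of Atp5g1, Ndufb2 and Ndufab1, at 5.66, 0.891 and 3.68 CPM per kb, were divided by principal transcripts much longer than those of their neighbours.

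Several subunits have tissue-specific or oxygen-regulated partner genes, and these macrophages expressed the widespread partner. Cox6a1, the form found in most tissues, stood at 206 CPM per kb and Cox6a2, the muscle form, at 0.751. Cox6b1 stood at 174 CPM per kb and the testis form Cox6b2 at 0.867. Cox7a2 stood at 93.2 CPM per kb, Cox7a2l at 163, and the muscle form Cox7a1 at 1.48. Cox8a stood at 248 CPM per kb while Cox8b had 2 counts in all, and Cox4i2, the oxygen-regulated partner of Cox4i1, had 105. Ndufa4l2, the hypoxia-induced partner of Ndufa4, stood at 0.479 CPM per kb. For Cox6a2 and Ndufa4l2 the overlapping genes on the opposite strand, Itgad and Shmt2, had 761% and 7286% of their counts, and whether counting used strand was not given in the sources used here, so their levels are uncertain. The c-ring of ATP synthase is built from 1 mature protein encoded by Atp5g1, Atp5g2 and Atp5g3, and in CPM without division by length Atp5g3 was the highest of these in every library outside PBS, at 84.9 to 115 CPM.

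Promoter windows were compared for motifs of factors that act on respiratory genes. RefSeq windows of 300 bases (250 before to 50 after the start, GRCm38.p6) were found for 71 of the 85 members, and Cox4i1, Atp5a1 and Uqcrc2 were among those without a window. Exact matches were sought on both strands. The NRF1 letters GCGCATGC were present in 11 of 71 members (15.5%) and in 3.05% of 27018 genes with a window and matches on opposite strands can overlap each other. The YY1 letters AAGATGGCG were present in 8 members (11.3%) and in 1.64% of genes. The ETS/GABP letters CCGGAAGTG were present in 2 members (2.82%) and in 2.25% of genes, and the ERR letters TCAAGGTCA in 1 member (1.41%) and in 0.466% of genes. At least 1 of the 4 was present in 22 members (31.0%) and in 7.04% of genes. All 8 YY1 matches read in the direction of transcription, and 7 of them began between bases 261 and 286 of the window, after the start at base 250. A match is a description of the letters, not of binding.

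The windows of 4 members whose levels are described further on are shown, with matches in capitals: a pair with NRF1 letters, an assembly factor and a complex III subunit, and a pair with YY1 letters, both complex I subunits. The lines give Ndufaf4 (chr4:24897833-24898132, plus strand, NRF1 from bases 138, 140 and 252), Uqcr11 (chr10:80406772-80407071, minus strand, NRF1 from base 247), Ndufs7 (chr10:80249199-80249498, plus strand, YY1 from base 275) and Ndufs4 (chr13:114388045-114388344, minus strand, YY1 from base 286). The start used by RefSeq lies 328 bases from the nearest annotated gene start for Ndufs7 and 164 bases for Ndufs4, against 0 for Ndufaf4 and 9 for Uqcr11.
Ndufaf4: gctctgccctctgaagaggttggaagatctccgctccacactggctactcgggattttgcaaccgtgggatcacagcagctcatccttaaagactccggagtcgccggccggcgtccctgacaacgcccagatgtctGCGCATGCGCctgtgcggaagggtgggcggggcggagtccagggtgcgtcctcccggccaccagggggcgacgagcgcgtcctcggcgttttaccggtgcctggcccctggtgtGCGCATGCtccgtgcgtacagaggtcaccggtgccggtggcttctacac
Uqcr11: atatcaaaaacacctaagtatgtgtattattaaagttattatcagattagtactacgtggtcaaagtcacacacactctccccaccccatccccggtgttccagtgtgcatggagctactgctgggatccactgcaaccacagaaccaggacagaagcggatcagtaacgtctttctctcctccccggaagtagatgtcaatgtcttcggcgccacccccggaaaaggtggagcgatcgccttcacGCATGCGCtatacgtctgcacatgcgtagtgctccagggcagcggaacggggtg
Ndufs7: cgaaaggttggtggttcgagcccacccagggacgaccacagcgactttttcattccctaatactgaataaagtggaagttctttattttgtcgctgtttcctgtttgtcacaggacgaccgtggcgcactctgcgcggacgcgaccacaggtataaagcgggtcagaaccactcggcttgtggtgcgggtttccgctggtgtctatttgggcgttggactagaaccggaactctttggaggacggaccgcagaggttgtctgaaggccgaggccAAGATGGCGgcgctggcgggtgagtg
Ndufs4: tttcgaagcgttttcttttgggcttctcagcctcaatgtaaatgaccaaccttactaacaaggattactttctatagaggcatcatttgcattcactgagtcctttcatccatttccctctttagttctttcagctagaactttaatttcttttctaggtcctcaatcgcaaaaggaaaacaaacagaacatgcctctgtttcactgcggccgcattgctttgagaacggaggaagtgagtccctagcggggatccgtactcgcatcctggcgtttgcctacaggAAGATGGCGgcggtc

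With all 15 libraries, 14 of the 85 members differed among the 5 conditions at an adjusted p under 0.05 (edgeR quasi-likelihood test with Benjamini-Hochberg (BH) adjustment over all genes, the rule for every call below), against 72.2% of all genes tested. Of these, 6 were complex I subunits, 3 assembly factors, 1 in complex III, 3 in complex V, and the last was Atp5s. Without PBS replicate 3 the count was 75 of 85, against 85.5% of genes, and without PBS replicate 1 or 2 it was 45 and 50 (73.2% and 74.8% of genes). On library totals it was 73 (79.7%), and 81 (90.1%) without PBS replicate 3. By group mean of TMM-scaled CPM, PBS was the highest condition for 68 members with all libraries and for 4 without PBS replicate 3, when frHMGB1 was highest for 37 and LPS for 32. LPS/IFNγ was the lowest condition for 57 members with all libraries and for 40 without that library, when PBS was lowest for 39.

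**Figure D3:**
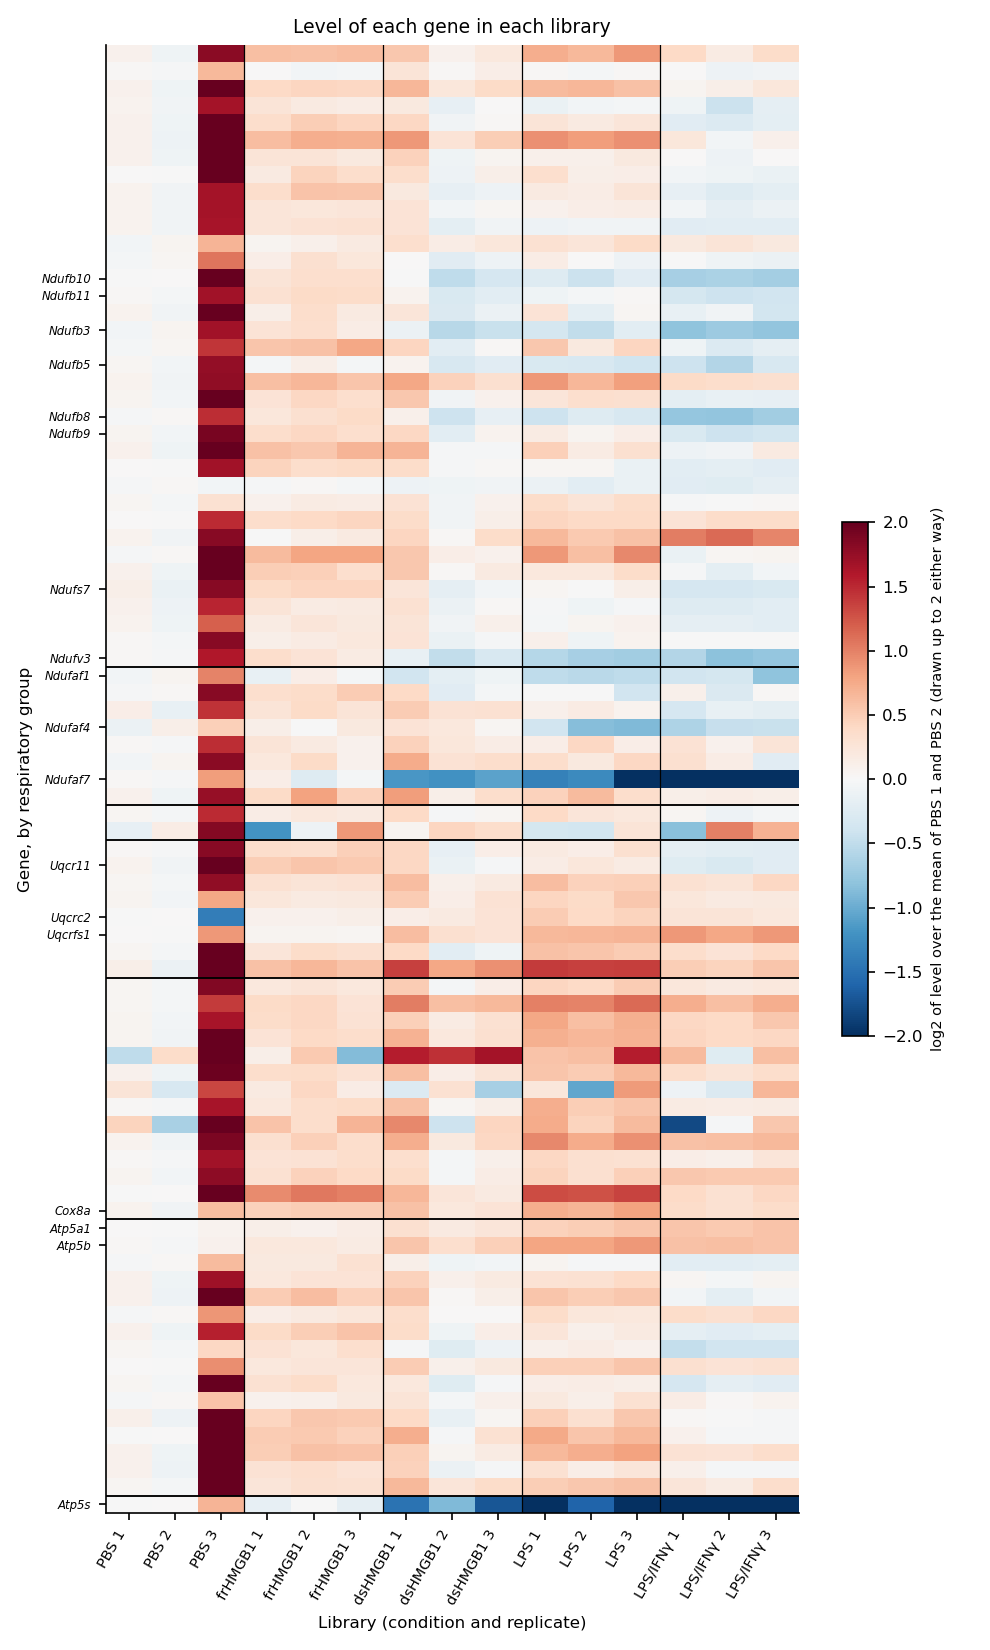
Level of each of the 85 members (lines of the map, by respiratory group) in each of 15 libraries (columns), with names for genes called against PBS in all 4 fits, as log2 of the ratio to the mean of PBS replicates 1 and 2, with colours drawn up to 2 either way. PBS replicate 3 is high in 83 members, and Ndufaf7 and Atp5s are low in all dsHMGB1, LPS and LPS/IFNγ libraries.

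Complex I, the largest group, held most of the falls in LPS/IFNγ. Its 36 subunits are 7 nuclear-encoded core subunits, which hold the flavin and iron-sulfur centres, and accessory subunits, among which the Ndufb group sits in the membrane arm. Against PBS with all libraries, 6 subunits fell in dsHMGB1, 8 after LPS and 24 with LPS/IFNγ, beside 24.0%, 36.1% and 31.1% of all genes, and none of the 36 was called higher by edgeR in these comparisons or at an unadjusted p under 0.05. Without PBS replicate 3, 6 rose and 3 fell in dsHMGB1, 14 rose and 5 fell in LPS, and 5 rose and 15 fell in LPS/IFNγ, beside 29.7%, 32.8% and 33.2% of all genes that rose and 28.9%, 38.2% and 34.4% that fell. On library totals 34, 33 and 35 of the 36 fell, beside 39.4%, 55.8% and 51.8% of all genes. On totals without PBS replicate 3, 26, 28 and 35 fell, beside 48.5%, 62.2% and 56.9%, and 1 rose in LPS/IFNγ (18.6%). The 10 Ndufb subunits carried most of the falls that held in all 4 fits: in LPS/IFNγ against PBS, 9 of 10 fell with all libraries and 6 without PBS replicate 3, and these were Ndufb3, Ndufb5, Ndufb8, Ndufb9, Ndufb10 and Ndufb11 in each of the 4 fits. With only LPS/IFNγ and PBS fitted, 2 of all 85 members were lower, so at most 2 of these 6 falls were kept.

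Ndufb8, a membrane-arm subunit, was at 37.2, 38.5 and 105 CPM in PBS, 44.1, 47.1 and 49.2 CPM in frHMGB1, 40.5, 28.3 and 33.7 CPM in dsHMGB1, 28.3, 31.6 and 30.2 CPM in LPS, and 22.1, 21.9 and 23.2 CPM in LPS/IFNγ. Every LPS and LPS/IFNγ library lay below every PBS and frHMGB1 library, whichever PBS libraries were used. The log2 fold change in LPS/IFNγ against PBS was -1.43 ± 0.31 (SE, n = 3 per condition, edgeR BH-adjusted p = 0.00146) and -0.77 without PBS replicate 3. Ndufb10 was at 37.2, 37.3 and 150 CPM in PBS and 23.4, 24.0 and 23.2 CPM in LPS/IFNγ, a log2 fold change of -1.67 ± 0.41 (edgeR BH-adjusted p = 0.00351) and -0.67 without PBS replicate 3. Ndufb3 was at 16.2, 17.5 and 54.2 CPM in PBS and 9.66, 10.2 and 9.79 CPM in LPS/IFNγ, a log2 fold change of -1.57 ± 0.35 (edgeR BH-adjusted p = 0.00186) and -0.78 without PBS replicate 3. In each of these genes the 3 LPS/IFNγ libraries lay below all PBS libraries and close to each other. With only LPS/IFNγ and PBS fitted, 2 of the 85 members were lower, so at most 2 of these 3 calls were kept.

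Ndufv3, an accessory subunit of the NADH-binding module, fell in all 3 activated states in each of the 4 fits. It was at 33.2, 32.5 and 99.7 CPM in PBS, 41.7, 39.9 and 36.8 CPM in frHMGB1, 29.6, 23.3 and 26.4 CPM in dsHMGB1, 22.2, 20.8 and 20.4 CPM in LPS, and 21.8, 18.7 and 19.3 CPM in LPS/IFNγ. The groups did not overlap: each dsHMGB1, LPS and LPS/IFNγ library was below each PBS and frHMGB1 library. Its log2 fold change against PBS was -1.06 ± 0.33 in dsHMGB1, -1.38 ± 0.33 after LPS and -1.47 ± 0.33 with LPS/IFNγ with all libraries, and -0.31, -0.60 and -0.73 without PBS replicate 3. The dsHMGB1 call was lost without dsHMGB1 replicate 2 or 3, at -0.97 and -1.05. With only the 2 conditions compared fitted, 2 of the 85 members were lower in each of the 3 comparisons. Most of the falls called in all 4 fits were thus lost there.

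Of the 7 nuclear-encoded core subunits, 1 was called against PBS in all 4 fits. Ndufs7, part of the quinone-reducing module, was at 40.5, 34.2 and 132 CPM in PBS and 29.6, 29.5 and 30.1 CPM in LPS/IFNγ, and fell there in all 4 fits, with log2 fold changes of -1.21 ± 0.37 (edgeR BH-adjusted p = 0.0129), -0.34, -0.44 and -0.16. It is among 12 such falls in LPS/IFNγ, of which at most 2 were kept when only LPS/IFNγ and PBS were fitted. Ndufs1, Ndufs8 and Ndufv1 fell in LPS/IFNγ against PBS with all libraries, at -0.20, -0.94 and -0.70 on the log2 scale, but were not called under the length offset. Ndufs3 and Ndufv2 were not called in LPS/IFNγ against PBS with all libraries.

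Ndufs4, an accessory subunit chosen after its values were seen, had its highest stimulated levels in LPS/IFNγ. Its level was 19.0, 17.2 and 64.2 CPM in PBS, 18.0, 19.6 and 20.5 CPM in frHMGB1, 24.3, 18.4 and 23.2 CPM in dsHMGB1, 28.5, 26.0 and 27.1 CPM in LPS, and 36.9, 39.9 and 35.8 CPM in LPS/IFNγ. The LPS/IFNγ libraries were above all others except PBS replicate 3. The log2 fold change in LPS/IFNγ against PBS was 0.17 ± 0.37 with all libraries (edgeR BH-adjusted p = 0.713) and 1.04 ± 0.10 without PBS replicate 3 (edgeR BH-adjusted p = 2.49e-08), so the call rests on leaving that library out.

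Among the 8 complex I assembly factors, Ndufaf7, a mitochondrial methyltransferase, fell the most. Its level was 5.22, 5.08 and 9.14 CPM in PBS, 5.63, 4.28 and 5.03 CPM in frHMGB1, 2.29, 2.23 and 2.44 CPM in dsHMGB1, 2.03, 2.13 and 1.23 CPM in LPS, and 0.817, 0.710 and 0.992 CPM in LPS/IFNγ. The conditions formed 3 steps with no overlap: PBS and frHMGB1 above, dsHMGB1 and LPS in between, and LPS/IFNγ below. Against PBS the log2 fold change was -1.48 ± 0.25 in dsHMGB1 (edgeR BH-adjusted p = 0.000318), -1.85 ± 0.25 after LPS (3.81e-05) and -2.94 ± 0.26 with LPS/IFNγ (6.59e-07), each n = 3 per condition, and -1.14, -1.48 and -2.62 without PBS replicate 3. It was also lower in dsHMGB1 than in frHMGB1 (-1.10 ± 0.25), higher in dsHMGB1 than in LPS/IFNγ (1.46 ± 0.27) and lower in LPS/IFNγ than in LPS (-1.09 ± 0.27), each in all 4 fits.

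Ndufaf4, which acts on the quinone-binding module, separated dsHMGB1 from LPS. It was at 4.83, 5.66 and 7.29 CPM in PBS, 5.70, 5.23 and 6.04 CPM in frHMGB1, 6.31, 6.04 and 5.39 CPM in dsHMGB1, 4.01, 2.91 and 2.85 CPM in LPS, and 3.43, 3.81 and 3.87 CPM in LPS/IFNγ. All LPS and LPS/IFNγ libraries lay below all PBS, frHMGB1 and dsHMGB1 libraries. It was higher in dsHMGB1 than in LPS by 0.86 ± 0.17 on the log2 scale (edgeR BH-adjusted p = 0.00259) and higher than in LPS/IFNγ by 0.68 ± 0.17 (edgeR BH-adjusted p = 0.00815), in all 4 fits. Against PBS its log2 fold change was -0.86 ± 0.17 in LPS and -0.68 ± 0.17 in LPS/IFNγ, both called in all 4 fits. Ndufaf1, an assembly factor of the membrane arm, fell in LPS against PBS in all 4 fits, at -0.92 ± 0.24 with all libraries and -0.48 without PBS replicate 3.

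**Figure D4:**
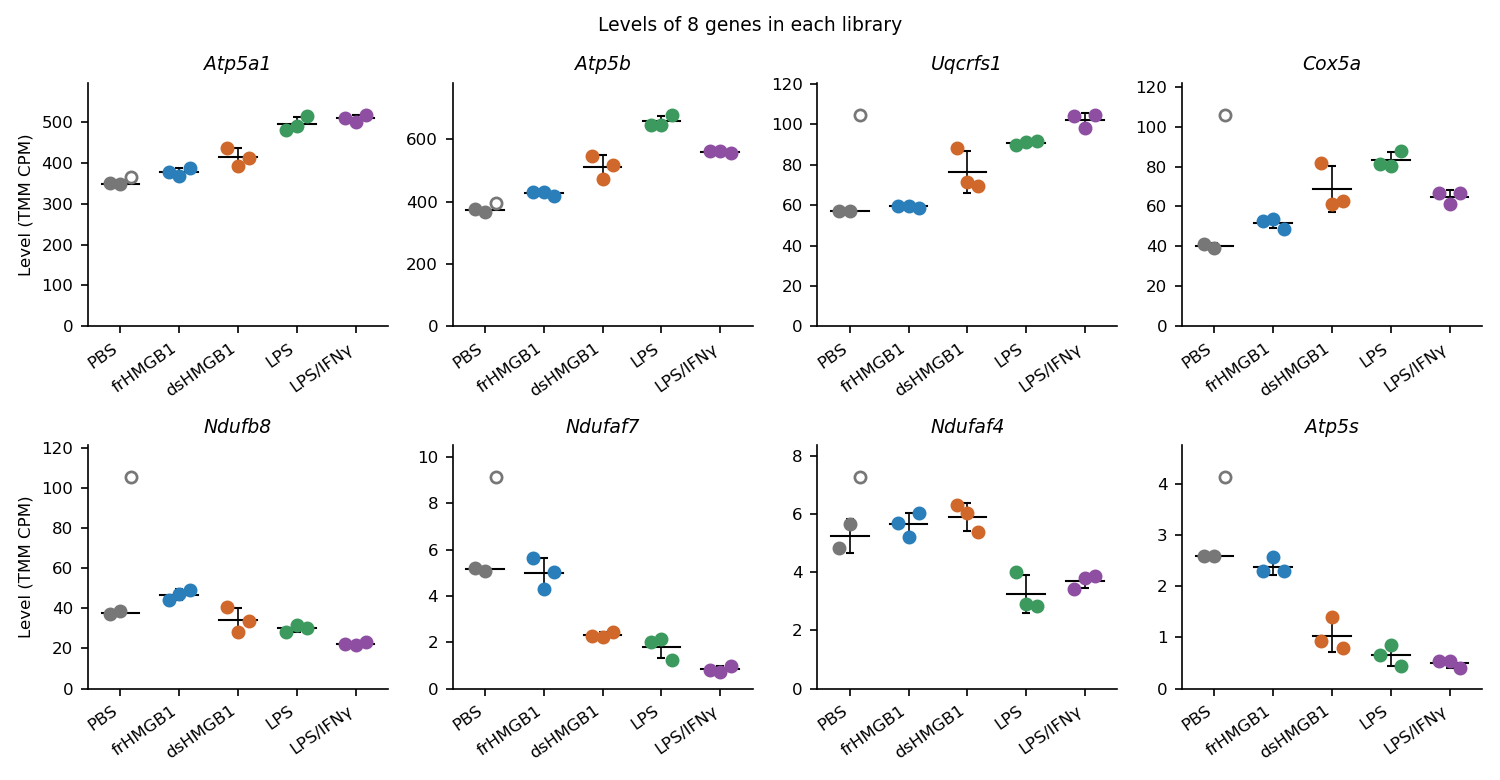
Levels of Atp5a1, Atp5b, Uqcrfs1, Cox5a, Ndufb8, Ndufaf7, Ndufaf4 and Atp5s in each library, in TMM-scaled CPM on axes that start at 0; points are libraries, the open circle is PBS replicate 3, and lines with bars are the mean and SD of the filled points. Atp5a1 and Atp5b have PBS replicate 3 close to the other PBS libraries (366 against 350 and 347 CPM for Atp5a1), while in Ndufb8 and Cox5a it lies far above them.

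In complex III, subunits of the core rose under TMM scaling and not on library totals. Uqcrfs1, the Rieske iron-sulfur protein that hands electrons to cytochrome c1, was at 57.3, 57.3 and 105 CPM in PBS, 59.7, 59.7 and 58.8 CPM in frHMGB1, 88.3, 71.6 and 69.6 CPM in dsHMGB1, 89.9, 91.2 and 91.8 CPM in LPS, and 104, 98.2 and 104 CPM in LPS/IFNγ. Apart from PBS replicate 3, every activated library was above every PBS and frHMGB1 library. In LPS/IFNγ against PBS it rose in all 4 fits, by 0.49 ± 0.19 on the log2 scale with all libraries (edgeR BH-adjusted p = 0.0421) and 0.83 ± 0.08 without PBS replicate 3. The call with all libraries was lost when PBS replicate 1 or 2 or any LPS/IFNγ library was left out, at 0.34 to 0.51, and on library totals (-0.14, and 0.11 without PBS replicate 3). Uqcrc2, a core protein of the complex, was at 84.4, 78.0 and 80.3 CPM in LPS against the PBS values above, and rose in LPS against PBS in all 4 fits, by 0.78 ± 0.25 with all libraries (edgeR BH-adjusted p = 0.0160) and 0.49 without PBS replicate 3, the library in which it was low. On library totals it was not called with all libraries (0.11) and fell without PBS replicate 3 (-0.25). With only the 2 conditions compared fitted, at most 2 of the 4 members higher in LPS against PBS were kept. In LPS/IFNγ against PBS at most 2 of the 3 were.

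Uqcrc1, the other core protein, was at 107, 98.9 and 176 CPM in PBS, 121, 117 and 118 CPM in frHMGB1, 146, 113 and 126 CPM in dsHMGB1, 139, 134 and 149 CPM in LPS, and 120.4, 116 and 118 CPM in LPS/IFNγ. It was not called against PBS with all libraries, and it rose in all 3 activated states without PBS replicate 3 (0.33, 0.49 and 0.19) and under the length offset (0.28, 0.41 and 0.29). On library totals it fell in LPS and LPS/IFNγ, at -0.46 and -0.73.

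The small subunits of complex III did not move together. Uqcr11 was at 39.1, 35.3 and 193 CPM in PBS and 31.6, 30.3 and 31.8 CPM in LPS/IFNγ, and fell there in all 4 fits, at -1.51 ± 0.47 on the log2 scale with all libraries (edgeR BH-adjusted p = 0.0158) and -0.26 without PBS replicate 3. Like Ndufs7, it is among the 12 falls of which at most 2 were kept when only LPS/IFNγ and PBS were fitted. Uqcrq, chosen after its values were seen, was at 34.6, 29.3 and 151 CPM in PBS, 47.9, 50.6 and 47.3 CPM in frHMGB1, 82.8, 54.8 and 60.3 CPM in dsHMGB1, 84.7, 82.8 and 83.2 CPM in LPS, and 44.9, 43.5 and 47.1 CPM in LPS/IFNγ. Its LPS libraries lay far above its LPS/IFNγ libraries. In LPS against PBS its log2 fold change was 0.22 ± 0.45 with all libraries, which did not pass the test, and 1.42 ± 0.12 without PBS replicate 3. Over the 8 subunits without PBS replicate 3, 5 rose in dsHMGB1, 6 in LPS, and 6 rose and 1 fell in LPS/IFNγ, beside 29.7%, 32.8% and 33.2% of all genes that rose. With all libraries 1 rose in LPS (26.6% of genes), and 1 rose and 2 fell in LPS/IFNγ (28.9% and 31.1%). On library totals 4, 5 and 6 of the 8 fell, beside 39.4%, 55.8% and 51.8% of all genes. On totals without PBS replicate 3, 4, 4 and 6 fell, beside 48.5%, 62.2% and 56.9%. There 1 rose in each of dsHMGB1 (17.4%) and LPS (17.2%).

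In complex IV the sign of the median turned with PBS replicate 3 under TMM scaling. With all libraries Cox8a, a small membrane subunit, was the 1 member of 14 called against PBS in any condition. It was at 101, 92.4 and 148 CPM in PBS and 160, 155 and 169 CPM in LPS, above all PBS libraries, and rose by 0.50 ± 0.15 on the log2 scale (edgeR BH-adjusted p = 0.0118) and by 0.78 without PBS replicate 3, but was not called on library totals (-0.11, and 0.04 without PBS replicate 3). Of the 4 members higher in LPS, Cox8a included, at most 2 were kept when only LPS and PBS were fitted. Without PBS replicate 3, 9 of the 14 subunits rose in frHMGB1, 8 in dsHMGB1, 12 after LPS and 8 with LPS/IFNγ, against 8.42%, 29.7%, 32.8% and 33.2% of all genes, with median log2 fold changes of 0.36, 0.37, 0.69 and 0.35. With all libraries those medians were -0.48, -0.60, -0.24 and -0.60. On library totals without PBS replicate 3 they were 0.31, -0.06, -0.05 and -0.36, so the rises in the activated states rest on the scaling as well. Under the length offset with all libraries 5 rose in dsHMGB1, 8 after LPS and 8 with LPS/IFNγ, against 31.4%, 35.7% and 36.7% of protein-coding genes.

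Cox5a, a core-associated subunit on the matrix side, was at 41.3, 39.3 and 106 CPM in PBS, 52.6, 53.5 and 48.7 CPM in frHMGB1, 81.9, 61.2 and 62.8 CPM in dsHMGB1, 81.3, 80.2 and 88.0 CPM in LPS, and 66.7, 61.3 and 66.7 CPM in LPS/IFNγ. PBS replicate 3 was above every other library, and PBS replicates 1 and 2 were below every other library. In LPS against PBS its log2 fold change was 0.42 ± 0.29 with all libraries (edgeR BH-adjusted p = 0.224), 1.08 ± 0.10 without PBS replicate 3, 0.98 ± 0.07 with the length offset and 0.91 ± 0.06 with both, and it rose in the last 3. On library totals it was -0.16, and 0.34 without PBS replicate 3, which was called. Cox4i1 was at 222, 208 and 778 CPM in PBS and 289, 282 and 304 CPM in LPS, with log2 fold changes of -0.46 ± 0.38 with all libraries and 0.48 ± 0.10 without PBS replicate 3, which passed the test, and it fell on library totals (-1.03, and -0.26 without PBS replicate 3). Cox5b, a zinc-binding subunit on the matrix side, was at 57.5, 53.6 and 174 CPM in PBS and 95.3, 84.7 and 91.3 CPM in LPS, with log2 fold changes of -0.07 ± 0.33 with all libraries and 0.74 ± 0.08 without PBS replicate 3, and it rose without that library and under the length offset (0.49 ± 0.09) but not on library totals (-0.64).

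Cox7c, chosen after its values were seen, was at 18.1, 18.1 and 93.6 CPM in PBS, 34.9, 37.8 and 36.2 CPM in frHMGB1, 28.6, 21.4 and 20.6 CPM in dsHMGB1, 44.8, 43.6 and 46.2 CPM in LPS, and 24.0, 22.3 and 24.2 CPM in LPS/IFNγ. It split the activated states, with LPS and frHMGB1 above dsHMGB1 and LPS/IFNγ. Processed pseudogenes that resemble Cox7c held 33.0% as many counts as the gene itself. Gm12338, identical to its transcript, was at 12.7 to 17.7 CPM in frHMGB1 and LPS and 6.12 to 9.65 CPM in dsHMGB1 and LPS/IFNγ, while Gm10012 split the other way, at 0.131 CPM or less against 0.237 to 0.727 CPM. The split in Cox7c therefore cannot be told apart from a difference in how reads of these libraries were placed.

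In complex V the catalytic pair rose with every activating stimulus under TMM scaling, and on library totals it did not. Atp5b, the beta subunit that holds the catalytic sites (ENSMUSG00000025393, GRCm38 chr10:128083273-128090391), was at 377, 367 and 394 CPM in PBS, 431, 430 and 418 CPM in frHMGB1, 545, 472 and 516 CPM in dsHMGB1, 646, 646 and 678 CPM in LPS, and 560, 562 and 555 CPM in LPS/IFNγ. PBS replicate 3 lay close to the other PBS libraries here, and no 2 of the 5 conditions overlapped. The log2 fold change against PBS was 0.43 ± 0.08 in dsHMGB1 (edgeR BH-adjusted p = 0.000702), 0.79 ± 0.08 after LPS (1.81e-06) and 0.56 ± 0.08 with LPS/IFNγ (4.57e-05), each n = 3 per condition and each called in all 4 fits. The dsHMGB1 call was lost when only these 2 conditions were fitted (0.43), and on library totals the values were 0.08, 0.16 and -0.09, none of them called, and without PBS replicate 3 it was called lower in LPS/IFNγ (-0.14). It was higher in dsHMGB1 than in frHMGB1 by 0.26 ± 0.08 (edgeR BH-adjusted p = 0.0160), lost without frHMGB1 replicate 3 (0.25) or dsHMGB1 replicate 1 (0.21), and lower in dsHMGB1 than in LPS, at -0.36 ± 0.08 (edgeR BH-adjusted p = 0.00476), both in all 4 fits and neither on library totals (-0.12 and -0.08).

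Atp5a1, the alpha subunit, was at 350, 347 and 366 CPM in PBS, 377, 369 and 388 CPM in frHMGB1, 437, 393 and 413 CPM in dsHMGB1, 481, 491 and 515 CPM in LPS, and 510, 500 and 518 CPM in LPS/IFNγ. Every LPS and LPS/IFNγ library was above every dsHMGB1 library, and those were above all PBS and frHMGB1 libraries. Against PBS it rose by 0.22 ± 0.08 on the log2 scale in dsHMGB1 (edgeR BH-adjusted p = 0.0307), 0.48 ± 0.08 after LPS (0.000127) and 0.52 ± 0.08 with LPS/IFNγ (6.21e-05), each in all 4 fits. The dsHMGB1 call was lost without PBS replicate 1 or 2 or dsHMGB1 replicate 1 or 3, at 0.20 to 0.23, and when only these 2 conditions were fitted (0.22). On library totals the direction turned, at -0.12, -0.14 and -0.13, not called with all libraries, and -0.17, -0.19 and -0.18 without PBS replicate 3, which were. Atp5a1 was lower in dsHMGB1 than in LPS, at -0.26 ± 0.08, and than in LPS/IFNγ, at -0.30 ± 0.08. The first of these calls was lost without dsHMGB1 replicate 2 (-0.22) or 3 (-0.26) or LPS replicate 3 (-0.26), and the other without dsHMGB1 replicate 2 (-0.26) or LPS/IFNγ replicate 1 or 3 (both -0.27). On library totals neither was called, at 0.02 and 0.01.

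Many calls on the other subunits of ATP synthase varied with PBS replicate 3. With all libraries 8 of 16 fell in LPS/IFNγ against PBS, beside 31.1% of all genes, led by Atp5e, the epsilon subunit, at -1.88 ± 0.60, a call lost without PBS replicate 3 (-0.11) or LPS/IFNγ replicate 2 (-1.84). Without PBS replicate 3, 7 of 16 rose in dsHMGB1, 11 in LPS and 11 in frHMGB1, and in LPS/IFNγ 6 rose and 3 fell, beside 29.7%, 32.8%, 8.42% and 33.2% of all genes that rose. On library totals 12, 14 and 14 of the 16 fell in dsHMGB1, LPS and LPS/IFNγ, beside 39.4%, 55.8% and 51.8% of all genes. On totals without PBS replicate 3, 8, 10 and 16 fell, beside 48.5%, 62.2% and 56.9%. Atp5c1, the gamma subunit, was at 105, 109 and 166 CPM in PBS and 92.1, 92.5 and 93.2 CPM in LPS/IFNγ, below all PBS libraries, with log2 fold changes of -0.45 ± 0.15 with all libraries and -0.21 without PBS replicate 3, both called, and -0.09 with the length offset, which was not. Atp5g2 of the c-ring trio was at 43.2, 41.5 and 44.9 CPM in frHMGB1, 34.9, 29.9 and 33.1 CPM in dsHMGB1, 38.0, 39.3 and 37.8 CPM in LPS, and 25.4, 27.2 and 27.3 CPM in LPS/IFNγ. It was lower in dsHMGB1 than in frHMGB1, at -0.40 ± 0.12, and lower in LPS/IFNγ than in LPS, at -0.53 ± 0.12, calls that the length offset with all libraries did not keep (-0.13 and -0.27). Against PBS its log2 fold change of -0.56 ± 0.12 in LPS/IFNγ was called, as was -0.42 without PBS replicate 3, and under the length offset it was 0.01.

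Atp5s (ENSMUSG00000054894, GRCm38 chr12:69724950-69744660), also known as factor B and now named as a distal membrane-arm assembly component, was low in level and, like Ndufaf7, fell in all 3 activated states. It was at 2.59, 2.59 and 4.14 CPM in PBS, 2.30, 2.57 and 2.29 CPM in frHMGB1, 0.928, 1.40 and 0.789 CPM in dsHMGB1, 0.654, 0.853 and 0.442 CPM in LPS, and 0.545, 0.546 and 0.394 CPM in LPS/IFNγ. All activated libraries lay below all PBS and frHMGB1 libraries. Against PBS the log2 fold change was -1.57 ± 0.28 in dsHMGB1 (edgeR BH-adjusted p = 0.000451), -2.25 ± 0.29 after LPS (2.17e-05) and -2.65 ± 0.29 with LPS/IFNγ (4.68e-06), and it stayed between -1.23 and -1.30, -1.93 and -1.99, and -2.20 and -2.40 in the other 3 fits. It was lower in dsHMGB1 than in frHMGB1, at -1.20 ± 0.28, and higher in dsHMGB1 than in LPS/IFNγ by 1.07 ± 0.30, the latter lost without dsHMGB1 replicate 2 (0.80) or LPS/IFNγ replicate 3 (0.95).

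The comparison of frHMGB1 with PBS asks what the reduced form does to resting cells. With all libraries edgeR called 0 of 85 members higher, against 1.25% of genes, and 0 lower, against 5.66%. At an unadjusted p under 0.05 there were 0 higher and 1 lower, DESeq2 called 0 in either direction, and the members' median log2 fold change was -0.48 beside 0.00 over all genes. Leaving out PBS replicate 3, 45 members rose, against 8.42% of genes, and 0 fell, against 9.09%, with 62 higher and 0 lower at an unadjusted p under 0.05 and a median of 0.31. Cox7c (1.02), Ndufs5 (0.75) and Ndufa2 (0.69) had the largest log2 fold changes among them. Cox7c and Ndufs5 have near-identical pseudogenes that set frHMGB1 apart from PBS as well: BC002163, 99.4% identical to Ndufs5, was at 0.219 to 0.302 CPM in frHMGB1 and at 1.29 and 0.612 CPM in PBS replicates 1 and 2, so how reads were placed may enter these rises and was not tested. In all 4 fits 0 members were called higher (0.630% of genes) and 0 lower (0.276%). With the length offset and PBS replicate 3 left out, 16 rose (5.65% of protein-coding genes). On library totals the median was -0.39, and without PBS replicate 3 it was 0.25 with 32 rises (5.56% of genes). Under both scalings, then, the sign of the members' median in frHMGB1 depends on 1 PBS library.

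The comparison of dsHMGB1 with PBS asks the same of the form that signals through TLR4. With all libraries 2 members rose, against 23.2% of genes, and 10 fell, against 24.0%, with a median log2 fold change of -0.63 beside -0.11 over all genes. When PBS replicate 3 was dropped, 29 rose (29.7% of genes) and 5 fell (28.9%), with a median of 0.16 beside -0.01. With the length offset 16 rose (31.4% of protein-coding genes) and 8 fell (29.6%), with a median of -0.01. Offset and PBS replicate 3 left out together gave 44 higher (38.2%) and 7 lower (32.2%), with a median of 0.18. In all 4 fits Atp5a1 and Atp5b were higher (24.2% of genes) and Atp5s, Ndufb3, Ndufb10, Ndufv3 and Ndufaf7 lower (23.2%). Leaving out PBS replicate 1 or 2 gave 44 and 53 lower, and leaving out dsHMGB1 replicate 1, 2 or 3 gave 5, 2 and 2. The number higher was 1 without dsHMGB1 replicate 1 or 3. Fitting only these 2 conditions left 2 lower and ended both rises. On library totals 62 fell (39.4% of genes), and without PBS replicate 3 there were 3 rises (17.4%) and 44 falls (48.5%).

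The comparison of LPS with PBS gave 4 members higher, against 26.6% of genes, and 13 lower, against 36.1%, with a median log2 fold change of -0.47 beside -0.27 over all genes. With PBS replicate 3 left out, 45 rose (32.8% of genes) and 9 fell (38.2%), with a median of 0.32 beside -0.16. In all 4 fits Uqcrc2, Cox8a, Atp5a1 and Atp5b were higher (29.4% of genes), and Atp5s, Ndufb3, Ndufb5, Ndufb8, Ndufb10, Ndufv3, Ndufaf1, Ndufaf4 and Ndufaf7 were lower (29.8%). Leaving out PBS replicate 1 or 2 gave 36 and 42 lower, and leaving out LPS replicate 2 gave 7. Fitting only these 2 conditions gave 2 higher and 2 lower. On library totals 69 fell (55.8% of genes), and without PBS replicate 3 there were 3 rises (17.2%) and 53 falls (62.2%).

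The comparison of LPS/IFNγ with PBS, the classical activation used in the study, gave 3 members higher, against 28.9% of genes, and 39 lower, against 31.1%, with a median log2 fold change of -0.79 beside -0.15 over all genes. Fitting only these 2 conditions gave 2 higher and 2 lower. On library totals 77 fell (51.8% of genes), and without PBS replicate 3 there were 1 rise (18.6%) and 75 falls (56.9%). Leaving out PBS replicate 3, 25 rose (33.2% of genes) and 23 fell (34.4%), with a median of -0.02 beside -0.02. With the length offset 23 rose (36.7% of protein-coding genes) and 17 fell (35.4%), with a median of -0.05. Offset and PBS replicate 3 left out together gave 38 higher (41.5%) and 13 lower (37.1%), with a median of 0.15. Across the 4 fits Uqcrfs1, Atp5a1 and Atp5b were higher (30.0% of genes), and 12 members were lower (30.1%): Atp5s, Ndufb3, Ndufb5, Ndufb8, Ndufb9, Ndufb10, Ndufb11, Ndufs7, Ndufv3, Ndufaf4, Ndufaf7 and Uqcr11. Ndufa2 and Atp5j2 changed sides, called lower with all libraries (-1.60 and -1.35) and higher with the length offset and PBS replicate 3 left out (0.22 and 0.16). Without PBS replicate 2 the number lower was 61, and without LPS/IFNγ replicate 1, 2 or 3 it was 19, 17 and 20.

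**Figure D5:**
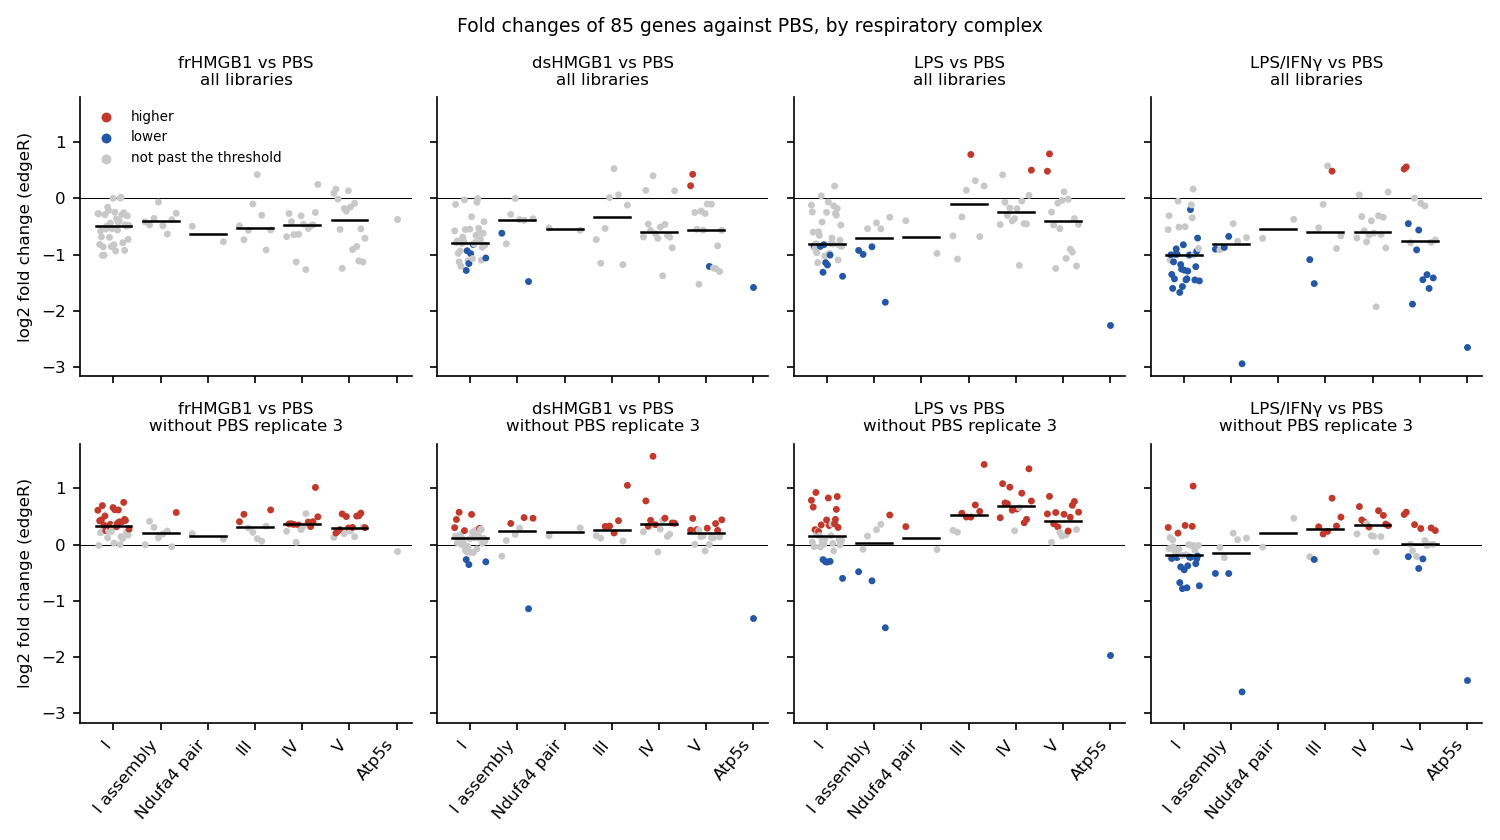
edgeR log2 fold change of each of 85 members against PBS (y axis) by respiratory group (x axis) for frHMGB1, dsHMGB1, LPS and LPS/IFNγ, with all libraries (top) and without PBS replicate 3 (bottom); points are genes, red called higher and blue called lower, and lines are group medians. Under this TMM scaling the medians of complexes III and IV lie below 0 in the top panels and above 0 in the bottom panels (on library totals they stay below 0 in the activated states), while Ndufaf7 and Atp5s stay at the lower edge of both in the 3 activated states.

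The direct comparison of dsHMGB1 with frHMGB1 uses no PBS library for its fold changes, although PBS replicate 3 still enters the shared estimate of the spread. Fitting only the 2 conditions compared raised the number of members called here and in the later comparisons between stimuli. Those counts are given under the processing, without the share of all genes called in the same fits. With all libraries Atp5b was higher (27.6% of genes) and Atp5s, Ndufaf7 and Atp5g2 were lower (22.9%), with a median log2 fold change of -0.14. When PBS replicate 3 was dropped, the fold changes stayed within 0.03 of these, and 7 members were higher (35.8% of genes) and 31 lower (32.8%). Among the 31 were 16 complex I subunits, such as Ndufb3 (-0.62), Ndufb10 (-0.59) and Ndufv3 (-0.58). Cox6a2 (1.53), Uqcrq (0.44), Cox5a (0.41) and Uqcrfs1 (0.36) led the 7. Cox6a2 had only 475 counts over all libraries, and its overlap with Itgad leaves its level uncertain. Across the 4 fits Atp5b was higher (23.3% of genes) and Atp5s and Ndufaf7 lower (23.4%). With the length offset the median was 0.10, with 18 higher (31.9% of protein-coding genes) and 8 lower (27.1%), so its sign turned with the length offset. On library totals it was -0.51 beside -0.38 over all genes, with 20 lower (37.3% of genes), and 74 lower (48.6%) without PBS replicate 3. Without dsHMGB1 replicate 1 or frHMGB1 replicate 3 no member was called higher by edgeR with the other libraries kept, while DESeq2 on all libraries called 3 and 2 members were higher at an unadjusted p under 0.05.

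Set against LPS, dsHMGB1 had Ndufaf4 higher (15.7% of genes) and Atp5a1 and Atp5b lower (10.5%), with a median log2 fold change of -0.11 beside 0.07 over all genes. With PBS replicate 3 left out, 3 members were higher (25.4% of genes) and 32 lower (23.2%), and the 32 held 11 of the 14 complex IV subunits. Across the 4 fits the same 3 genes were called, Ndufaf4 higher (11.2% of genes) and Atp5a1 and Atp5b lower (11.9%). The number lower was 1 without dsHMGB1 replicate 2 or 3 or LPS replicate 3. With the length offset and PBS replicate 3 left out, 12 were higher (25.3% of protein-coding genes) and 31 lower (29.9%). On library totals the median was 0.18 beside 0.35 over all genes, with 6 members higher (27.2% of genes), and 30 higher (45.8%) and 2 lower (10.6%) without PBS replicate 3, and all genes shifted the same way from a median of 0.07.

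Set against LPS/IFNγ, dsHMGB1 had Ndufaf7, Atp5s and Ndufaf4 higher (16.4% of genes) and Atp5a1 lower (16.5%), with a median log2 fold change of 0.20 beside 0.03 over all genes. Leaving out PBS replicate 3, 39 members were higher (27.9% of genes) and 5 lower (25.2%), and 23 of the 39 were complex I subunits. The 5 lower were Ndufs4 (-0.75), Uqcrfs1 (-0.40), Cox7b (-0.33), Atp5a1 (-0.28) and Atp5f1 (-0.21). Across the 4 fits the same 3 genes were higher (17.7% of genes) and Atp5a1 lower (18.1%). Without dsHMGB1 replicate 2 or LPS/IFNγ replicate 1 or 3, edgeR called 0 lower, while DESeq2 on all libraries called 1 and 2 were lower at an unadjusted p under 0.05. With the length offset 6 were higher (23.8% of protein-coding genes) and 11 lower (25.5%), and 24 higher (31.5%) and 21 lower (33.4%) when PBS replicate 3 was left out too. On library totals 14 were higher (28.2% of genes), and 74 higher (43.3%) and 1 lower (16.1%) without PBS replicate 3.

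Adding IFNγ to LPS gave 0 members higher with all libraries, against 16.2% of genes, with 0 at an unadjusted p under 0.05 and 0 by DESeq2, and 3 members lower (9.17%), Ndufaf7 and Atp5g2 among them, with a median log2 fold change of -0.27 beside 0.04 over all genes. When PBS replicate 3 was dropped, the median was -0.32, with Ndufs4 higher (25.0% of genes) and 53 members lower (24.2%): 22 complex I subunits, 3 assembly factors, 5 in complex III, 10 in complex IV, 12 in complex V and Ndufa4. The largest falls among these 53 were Ndufaf7 (-1.14), Cox7c (-0.98) and Uqcrq (-0.94). With the length offset and PBS replicate 3 left out, the median was -0.09, with 7 higher (25.6% of protein-coding genes) and 24 lower (25.8%). On library totals it was -0.30, with 4 lower (9.50% of genes), and 53 lower (22.8%) without PBS replicate 3. Across the 4 fits no member was higher (11.5% of genes) and 2 were lower (9.83%), Ndufaf7 among them. The dose of LPS in the LPS/IFNγ group is given in 2 ways, so the addition of IFNγ cannot be told apart from a lower dose of LPS. The comparisons share libraries, so their values are not independent of each other.

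The 13 protein-coding genes of the mitochondrial genome, which supply the remaining subunits, did not follow the nuclear genes in PBS replicate 3 as a sum, although mt-Nd6 and mt-Co2 were above the other PBS libraries there. Their summed level was 5919, 6232 and 2032 CPM in PBS, 6096, 6426 and 6750 CPM in frHMGB1, 8131, 8298 and 5641 CPM in dsHMGB1, 7275, 7179 and 5919 CPM in LPS, and 6969, 8486 and 7165 CPM in LPS/IFNγ. PBS replicate 3 was the lowest library, where for the nuclear members it was the highest. With all libraries 2 rose in dsHMGB1 (23.2% of genes) and 1 in LPS/IFNγ (28.9%), and 6 fell in both frHMGB1 (5.66%) and LPS (36.1%). On library totals these rises were lost, and 6 fell in frHMGB1 (5.57% of genes), 7 in LPS (55.8%) and 1 in LPS/IFNγ (51.8%), or 6 (11.5%), 13 (62.2%) and 3 (56.9%) without PBS replicate 3. Under the length offset with all libraries 3 fell in frHMGB1 (0.445% of protein-coding genes), and 3 fell there in all 4 fits (0.276%). The largest changes were those of mt-Atp8 in frHMGB1 (-5.07 ± 1.07), mt-Atp6 in LPS (-4.44 ± 0.43) and mt-Co3 in dsHMGB1 (0.90 ± 0.28) and LPS/IFNγ (0.85 ± 0.28), and the rises of mt-Co3 were not called on library totals (0.53 and 0.18). The same 6 genes, mt-Co2, mt-Co3, mt-Atp6, mt-Atp8, mt-Nd3 and mt-Nd4l, were at 2.61 CPM or less in every frHMGB1 and LPS library, and each was lower there than in any dsHMGB1 or LPS/IFNγ library: mt-Co2 was at 20.9, 19.0 and 42.1 CPM in PBS, 1.45, 1.64 and 1.76 CPM in frHMGB1, 42.0, 22.4 and 17.6 CPM in dsHMGB1, 2.18, 2.61 and 1.99 CPM in LPS, and 22.5, 28.0 and 27.5 CPM in LPS/IFNγ. The other 7, such as mt-Co1 at 2763 to 4509 CPM outside PBS, showed no such split. PBS replicate 3 was low as well for mt-Nd4l (0.0391 CPM) and mt-Atp8 (0.156 CPM). The frHMGB1 and LPS libraries thus share a feature across these 6 genes, whose source and part in the results on the nuclear genes were not tested.

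Other mitochondrial genes were read from lists, beside 23.2%, 26.6% and 28.9% of all genes that rose and 24.0%, 36.1% and 31.1% that fell in dsHMGB1, LPS and LPS/IFNγ against PBS with all libraries. On library totals these shares were 15.3%, 15.6% and 17.5% for rises and 39.4%, 55.8% and 51.8% for falls. Of 7 genes for complex II, cytochromes c1 and c and the ATPase inhibitor, 2 rose against PBS in each of dsHMGB1, LPS and LPS/IFNγ, and 1, 2 and 3 fell, while on library totals 1 rose and 5 fell in each. Cycs, the electron carrier cytochrome c, was at 7.86, 6.31 and 15.8 CPM in PBS, 14.97, 14.8 and 14.9 CPM in frHMGB1, 25.2, 23.1 and 22.6 CPM in dsHMGB1, 65.6, 65.3 and 67.1 CPM in LPS, and 34.1, 31.1 and 34.3 CPM in LPS/IFNγ, and rose by 1.24 ± 0.24, 2.73 ± 0.24 and 1.73 ± 0.24 on the log2 scale in these 3 comparisons (0.93, 2.14 and 1.12 on library totals, all called). Every activated library was above all PBS libraries. Sdhb, the iron-sulfur subunit of complex II, had the largest falls in dsHMGB1 and LPS/IFNγ, at -0.84 ± 0.29 and -1.32 ± 0.29 (-0.17 and -0.66 without PBS replicate 3), and Atpif1, the ATPase inhibitor, in LPS, at -1.03 ± 0.38 (-0.06 without it). Without that library the calls on Sdhb in dsHMGB1 and on Atpif1 in LPS were lost, and Sdhb was still called in LPS/IFNγ. Of 28 assembly factors of complexes I, III, IV and V outside the Ndufaf group, 27 were tested, and 7, 7 and 5 rose while 6, 9 and 16 fell in dsHMGB1, LPS and LPS/IFNγ against PBS (3, 4 and 2, and 15, 20 and 20, on library totals). Sco1, a copper chaperone of complex IV, was at 6.75, 6.58 and 6.51 CPM in PBS and 72.1, 66.8 and 70.7 CPM in LPS/IFNγ, and its log2 fold changes of 1.52 ± 0.09 in dsHMGB1, 2.27 ± 0.09 after LPS and 3.40 ± 0.09 with LPS/IFNγ were the largest rises. With all libraries the largest falls were those of Uqcc3, a complex III assembly factor, in dsHMGB1 (-2.04 ± 0.43, and -0.96 without PBS replicate 3) and LPS/IFNγ (-2.85 ± 0.43 and -1.78), and of Tmem126b, a complex I assembly factor, in LPS (-2.73 ± 0.20). Without PBS replicate 3 Tmem126b fell more than Uqcc3 in dsHMGB1 (-1.72) and LPS/IFNγ (-2.53) as well. On library totals without that library 3, 6 and 4 of the 27 assembly factors rose and 15, 18 and 21 fell. Of the 7 genes named first, 1 rose in each comparison there, and 5, 5 and 6 fell. The shares of all genes in that fit were 17.4%, 17.2% and 18.6% for rises and 48.5%, 62.2% and 56.9% for falls.

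Several regulators of mitochondrial gene expression rose. Of 11 listed, 10 were tested, and 6, 7 and 7 rose and 1, 1 and 2 fell in dsHMGB1, LPS and LPS/IFNγ against PBS, and without PBS replicate 3 the same numbers rose and fell. The shares of all genes that rose were 23.2%, 26.6% and 28.9%. On library totals 3, 4 and 4 of the 10 rose, against 15.3%, 15.6% and 17.5% of genes. There 2, 2 and 3 of the 10 fell, against 39.4%, 55.8% and 51.8% of genes. On totals without PBS replicate 3, 5, 6 and 4 rose, against 17.4%, 17.2% and 18.6% of genes. In that fit 3, 4 and 4 fell, against 48.5%, 62.2% and 56.9%. Nrf1, the factor whose letters were sought in the promoters and which was chosen after its values were seen, was at 17.7, 18.1 and 16.6 CPM in PBS, 20.1, 18.0 and 19.0 CPM in frHMGB1, 33.0, 33.0 and 33.5 CPM in dsHMGB1, 40.0, 41.5 and 44.1 CPM in LPS, and 48.4, 48.9 and 49.2 CPM in LPS/IFNγ. Its libraries were tightly grouped and PBS replicate 3 did not stand apart. The log2 fold change against PBS was 0.92 ± 0.08 in dsHMGB1, 1.26 ± 0.08 after LPS and 1.48 ± 0.08 with LPS/IFNγ, and on library totals 0.57, 0.63 and 0.82, all called. Esrra, which encodes the estrogen-related receptor alpha, rose by 1.07 ± 0.10, 0.98 ± 0.10 and 0.69 ± 0.10, and Ppargc1b, a coactivator of both, by 0.82 ± 0.18, 1.70 ± 0.18 and 3.49 ± 0.17. Ppargc1a, its better-known relative, was at 0.155 CPM or less in every library. Tfb1m, a mitochondrial rRNA methyltransferase, had the largest fall in LPS/IFNγ (-1.35 ± 0.23), and Polrmt, the mitochondrial RNA polymerase, the largest in dsHMGB1 (-0.27 ± 0.09) and LPS (-0.38 ± 0.09). In frHMGB1 against PBS 1 of the 10 rose, Tfb2m, by 0.55 ± 0.15 (edgeR BH-adjusted p = 0.0484), against 1.25% of genes, and it was not called on library totals (0.57) or under the length offset with all libraries.

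The remaining lists give the surroundings. With all libraries 23.2%, 26.6% and 28.9% of genes rose and 24.0%, 36.1% and 31.1% fell in dsHMGB1, LPS and LPS/IFNγ against PBS. On library totals 15.3%, 15.6% and 17.5% rose and 39.4%, 55.8% and 51.8% fell. Of 14 genes of the TCA cycle 3, 4 and 3 rose and 6, 6 and 7 fell in dsHMGB1, LPS and LPS/IFNγ against PBS (1, 2 and 1, and 8, 10 and 10, on library totals), with Dld, a subunit shared by the 2-oxoacid dehydrogenases, rising by 0.95 ± 0.08, 1.22 ± 0.08 and 1.02 ± 0.08 and Idh2 falling, at -0.80 ± 0.12, -0.93 ± 0.12 and -1.27 ± 0.12. Of 11 genes for protein import, porins and cristae 4, 6 and 5 rose (2, 1 and 1 on library totals), led by Timm23 at 1.22 ± 0.12, 1.98 ± 0.12 and 1.68 ± 0.12, and 2 fell in each of LPS and LPS/IFNγ, led by Hspd1 (-0.31 ± 0.09) and Phb (-1.07 ± 0.23), while on library totals 4, 6 and 8 fell. On library totals without PBS replicate 3 the TCA cycle genes gave 2, 2 and 1 rises and 11, 11 and 12 falls. The import, porin and cristae genes gave 3, 2 and 2 rises and 4, 7 and 9 falls there. Of 78 mitochondrial ribosomal protein genes 77 were tested, and 4, 5 and 4 rose and 26, 29 and 41 fell with all libraries, against 25, 33 and 20 that rose and 13, 16 and 36 that fell without PBS replicate 3. Of 88 cytosolic ribosomal protein genes 84 were tested, and 1, 2 and 1 rose and 5, 5 and 11 fell with all libraries, against 38, 76 and 33 that rose without it, when 1 and 2 fell in dsHMGB1 and LPS and edgeR called 0 lower in LPS/IFNγ (0 at an unadjusted p under 0.05, and 13 by DESeq2 on all libraries). Of all genes 29.7%, 32.8% and 33.2% rose and 28.9%, 38.2% and 34.4% fell without that library. In both families, whose transcripts are short as the members' are, more genes rose without PBS replicate 3 under TMM scaling. On library totals without it 50, 59 and 63 mitochondrial and 34, 23 and 76 cytosolic ribosomal protein genes fell, against 48.5%, 62.2% and 56.9% of genes. There 7, 7 and 2 mitochondrial ribosomal protein genes rose, and in LPS 28 cytosolic ones, against 17.4%, 17.2% and 18.6% of genes. Most of the rises thus rest on the scaling too.

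Some members share sequence or position with other genes, which limits single values. Among processed pseudogenes, 175 matched a member's transcript at 80% identity or more over at least 50% of its length, for 55 of the 85 members, and 33 of these pseudogenes had 150 counts or more. Their counts were between 1.85% and 2.61% of the members' counts in each library, lowest in LPS replicate 1 and highest in PBS replicate 3. That sum hides single pseudogenes, chosen after their values were seen, that were low in frHMGB1 and LPS alone. Outside PBS replicate 3, Gm6581 was at 0.113 CPM or less in those libraries and 0.476 to 0.962 CPM in the others, Cox6c2 at 0.650 to 1.33 and 1.99 to 3.30 CPM, and Atp5l2-ps at 0.273 or less and 0.592 to 0.881 CPM. The libraries divide as in the 6 mitochondrial transcripts, and what divides them was not tested. The largest ratios to the parent gene were 50.1% for Ndufa12, 47.0% for Atp5l, 33.0% for Cox7c, 27.0% for Ndufab1, 26.2% for Atp5g1 and 24.6% for Atp5h, and the levels of these genes are uncertain to that extent. Exons of 32 members overlap another gene, 29 of them on the opposite strand, and for 16 the overlapping gene had at least 10% of the member's counts. Ndufs1, next to Eef1b2 (668%), and Ndufb2, next to Braf (974%), had the largest ratios among complex I subunits, while Atp5b, Ndufaf7, Ndufv3, Ndufb3, Ndufb10, Uqcrfs1 and Atp5s had no exon overlap with another gene.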

How the data were processed

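RNA from 15 libraries was sequenced on stranded mRNA preparations, and the authors mapped reads with STAR to GRCm38 and deposited raw counts per Ensembl gene; the sources used here do not name the counting program. Totals ran from 40934540 to 80925478 counts. edgeR 4.0.16 (R 4.3.3) fitted 1 coefficient per condition to the 16919 genes kept by filterByExpr (minimum count 10), with TMM factors and robust quasi-likelihood F tests, BH-adjusted over all genes tested, at a false discovery rate of 0.05. DESeq2 1.42.0 was the other tool. The length offset removed each library's loess trend with log2 transcript length (span 0.5, 13025 protein-coding genes). A fit on library totals in place of TMM factors was added after the values were seen. GENCODE M21 gave symbols and lengths, RefSeq the promoters, and blastn 2.17.0 the pseudogene matches. Members and lists were chosen with earlier results of these data known. Named were the 3 largest called rises and falls of each comparison, the most abundant member of each group, core subunits, isoform partners, and each list's largest called rise and fall. Genes called in all 4 fits were named by a rule added after the values were seen. Of the genes that these rules name, 1 is not reported here.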

Additional observations from a re-analysis of the deposited data

How the results depend on the processing

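Counts of members called are given as higher/lower, and values that changed by less than 1.5 times are not repeated. Shares of all genes called are not given for the fits of 2 conditions. Nor are they given with single libraries left out, except PBS replicate 3 and, for any difference, PBS replicates 1 and 2. Where the share is missing, a change in the members' count cannot be told apart from a change over all genes. Without a filter on low counts dsHMGB1 against PBS gave 1 and 5, dsHMGB1 against frHMGB1 2 higher, dsHMGB1 against LPS 1 lower and dsHMGB1 against LPS/IFNγ 0 lower by edgeR (2 at an unadjusted p under 0.05 and 1 by DESeq2 with the filter). Fitting only the 2 conditions compared gave 0 and 2 for dsHMGB1 against PBS, 2 and 2 for LPS against PBS, 2 lower for LPS/IFNγ against PBS, 5 and 22 for dsHMGB1 against frHMGB1, 2 and 16 for dsHMGB1 against LPS, 29 and 4 for dsHMGB1 against LPS/IFNγ, and 2 and 61 for LPS/IFNγ against LPS. DESeq2 called 3 higher in dsHMGB1 against frHMGB1 and 24 members by any difference, and a fit of protein-coding genes called 3 higher in dsHMGB1 against frHMGB1.

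The length offset gave 16 higher for dsHMGB1 and 22 for LPS against PBS, 23 and 17 for LPS/IFNγ against PBS, 18 and 8 for dsHMGB1 against frHMGB1, 3 and 12 against LPS, 6 and 11 against LPS/IFNγ, 1 and 5 for LPS/IFNγ against LPS, and 44 by any difference. The same offset with PBS replicate 3 left out, chosen after seeing the data, as were the 4-fit rule and the alternatives for any difference, gave 16 higher for frHMGB1, 44 for dsHMGB1 and 42 for LPS against PBS, 38 and 13 for LPS/IFNγ against PBS, 33 and 17 for dsHMGB1 against frHMGB1, 12 and 31 against LPS, 24 and 21 against LPS/IFNγ, 7 and 24 for LPS/IFNγ against LPS, and 69 by any difference. The median level per kb was 22.7 with union exon lengths.

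Residual correlations were no higher between libraries that share a replicate number. Over 30 pairs that share a number they ran from -0.39 to 0.37, with a median of -0.0045. Over 60 pairs that do not, they ran from -0.44 to 0.46, with a median of -0.0033. With the replicate number as a block 5 members were lower in dsHMGB1 against PBS. Block and length offset together gave 16 higher for dsHMGB1 and 22 for LPS against PBS, 25 and 15 for LPS/IFNγ against PBS, 17 and 8 for dsHMGB1 against frHMGB1, 4 and 12 against LPS, 5 and 12 against LPS/IFNγ, 1 and 5 for LPS/IFNγ against LPS, and 45 by any difference.

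Library totals in place of TMM factors, chosen after seeing the data, gave 0 higher by edgeR in dsHMGB1, LPS and LPS/IFNγ against PBS (0 at an unadjusted p under 0.05; DESeq2 with its own factors 2, 5 and 4) and 62, 69 and 77 lower, 0 and 20 for dsHMGB1 against frHMGB1 (0 and 26 unadjusted; DESeq2 3 and 3), 6 and 0 against LPS (7 and 0; DESeq2 1 and 2), 14 and 0 against LPS/IFNγ (22 and 0; DESeq2 3 and 1), and 73 by any difference. With PBS replicate 3 also left out they gave 32 higher for frHMGB1, 44 lower for dsHMGB1, 53 lower for LPS and 1 and 75 for LPS/IFNγ against PBS, 74 lower for dsHMGB1 against frHMGB1, 30 higher against LPS, 74 higher against LPS/IFNγ, 1 and 53 for LPS/IFNγ against LPS, and 81 by any difference. Directions turned on totals (first value, then without PBS replicate 3) for Atp5a1 against PBS in dsHMGB1 (-0.12, -0.17), LPS (-0.14, -0.19) and LPS/IFNγ (-0.13, -0.18), for Atp5a1 in dsHMGB1 against LPS (0.0226, 0.0226) and LPS/IFNγ (0.00869, 0.00865), for Atp5b in LPS/IFNγ against PBS (-0.0931, -0.14) and dsHMGB1 against frHMGB1 (-0.12, -0.12), and in 1 of these fits for Uqcrc2 in LPS (-0.25 without PBS replicate 3), Cox8a in LPS (-0.11) and Uqcrfs1 in LPS/IFNγ (-0.14) against PBS.

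With each library left out in turn, the number higher ran from 0 to 45 for frHMGB1, 1 to 29 for dsHMGB1, 4 to 45 for LPS and 2 to 25 for LPS/IFNγ against PBS, 0 to 7 for dsHMGB1 against frHMGB1, 1 to 3 against LPS, 2 to 39 against LPS/IFNγ and 0 to 1 for LPS/IFNγ against LPS. The number lower ran from 0 to 0, 2 to 53, 7 to 42, 17 to 61, 3 to 31, 1 to 32, 0 to 5 and 2 to 53 in the same order, and any difference from 12 to 75. The direction in LPS/IFNγ against PBS turned for Atp5g2 (0.00724 with the length offset, 0.0273 with the block too), Ndufa2 (0.22 with the offset and PBS replicate 3 left out, and from -2.03 without PBS replicate 2 to 0.0846 without PBS replicate 3) and Ndufv1 (0.00531 with the offset and PBS replicate 3 left out). Of the other values for 46 named results, 701 kept direction and call and 119 lost the call.

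The libraries of a condition come from 1 pool of mice, so p covers cultures and libraries, not animals. Scaling by TMM assumes that most genes do not change, and counts were compared without protein or respiration measurements. Which reads were counted on which strand was not given, so members that share exons with other genes are uncertain.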
